A study of Mus musculus with 12 samples.

Results

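The 47 cell cycle and replication genes described here encode the cyclins, kinases, transcription factors, replication proteins and spindle proteins that copy the genome and divide the cell. They were taken by name from the 43698 rows of the gene table, each had 1 row, and all 47 passed the filter on low counts that left 19525 genes for testing. For comparison they were put in an S phase set of 21 genes and a mitotic set of 23 genes. Ccna2, Ccnd1 and Mybl2 act outside these phases or across both and were put in neither set.

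The tumours were grown from MC38, a colon carcinoma line of C57BL/6 mice, under the skin of 8-week-old C57BL/6J animals and were collected on day 20. Each of 6 groups had 2 RNA-seq libraries. RP received 20 µg (0.80 mg/kg) of Ru-PD-L1, an antibody-catalyst conjugate directed at the checkpoint ligand PD-L1. In R+X the conjugate was taken to be combined with DOX, and in R+D with DPD, with 14 µg of drug injected beside the tumour 6 hours after the conjugate, whose dose in these 2 groups is not stated. The DOX group received 14 µg (0.56 mg/kg) of DOX, taken as the DNA-damaging drug doxorubicin, and the DPD group the same amount of DPD, taken as the DOX prodrug of the study's title. Ctrl received PBS. RP, DOX, DPD and Ctrl were injected into the peritoneum every 3 days from day 9, so the route and the handling of the tumour differed in R+X and R+D as well as the agents. All groups share the mouse strain and the cell line, and the labels name no engineered allele. The comparisons with Ctrl share its 2 libraries.

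Cells enter the cycle when D-type and E-type cyclins with their kinases release the E2F transcription factors, which switch on the genes of DNA replication. Licensing factors load the MCM helicase onto origins, Cdc7 and the GINS complex turn it on, and Pcna holds the polymerases on the template. Later, Foxm1 and Mybl2 drive the genes of G2 and mitosis, whose products build the spindle, hold the checkpoint until chromosomes are attached, and split the cell. In a growing tumour these genes are read as a measure of how many cells divide, and in bulk RNA a change in the number of dividing cells cannot be told apart from a change in RNA per dividing cell.

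The promoters of the 2 sets carry different short sequences, and 6 are shown so that the E2F and CHR letters, by which S phase and mitotic genes are usually told apart, can be read where they occur. RefSeq windows (GRCm38.p6, 250 bases before to 50 after the start) were found for 36 of 47 members, 17 of the S phase set and 18 of the mitotic set. E2F letters on either strand (TTCCCGC, or else TTGGCGC, or else TTCGCGC) were present in 10 of 17 S phase promoters (58.8%) and 3 of 18 mitotic promoters (16.7%), against 9.2% of the 27018 genes with a window. CHR letters on either strand (TTTGAA, or else TTCGAA) were present in 5 of 17 S phase promoters (29.4%) and 14 of 18 mitotic promoters (77.8%), against 21.7% of all genes. CCAAT on either strand was present in 11 of 17 S phase promoters (64.7%) and 15 of 18 mitotic promoters (83.3%), against 41.1% of all genes. Matches that overlap on opposite strands were each counted, and a match is a description of letters, not a site of binding. The genes shown are the 3 of each set with the highest mean level in CPM, the count scaled to library size, among those with 1 window. Capitals mark E2F, CHR and CCAAT letters, and of the 6 windows that of Pcna held neither E2F nor CHR letters.
Mcm6: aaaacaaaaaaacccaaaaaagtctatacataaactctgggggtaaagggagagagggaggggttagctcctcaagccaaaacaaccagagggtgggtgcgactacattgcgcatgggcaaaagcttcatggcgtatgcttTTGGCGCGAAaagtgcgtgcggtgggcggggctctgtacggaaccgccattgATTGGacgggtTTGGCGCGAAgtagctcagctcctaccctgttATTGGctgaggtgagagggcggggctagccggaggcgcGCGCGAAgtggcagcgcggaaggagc
Pcna: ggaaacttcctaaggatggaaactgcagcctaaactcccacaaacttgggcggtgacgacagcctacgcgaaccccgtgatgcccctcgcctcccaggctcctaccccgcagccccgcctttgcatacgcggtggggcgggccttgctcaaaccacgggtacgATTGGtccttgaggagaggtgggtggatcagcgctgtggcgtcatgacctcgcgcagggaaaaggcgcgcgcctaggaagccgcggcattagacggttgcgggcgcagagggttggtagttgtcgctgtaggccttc
Mcm5: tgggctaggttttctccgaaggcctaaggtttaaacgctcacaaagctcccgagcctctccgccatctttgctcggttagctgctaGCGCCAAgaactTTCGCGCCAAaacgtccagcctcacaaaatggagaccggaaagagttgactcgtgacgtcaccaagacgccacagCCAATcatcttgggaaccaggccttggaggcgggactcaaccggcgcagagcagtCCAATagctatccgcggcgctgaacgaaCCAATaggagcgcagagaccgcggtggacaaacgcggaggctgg
Mki67: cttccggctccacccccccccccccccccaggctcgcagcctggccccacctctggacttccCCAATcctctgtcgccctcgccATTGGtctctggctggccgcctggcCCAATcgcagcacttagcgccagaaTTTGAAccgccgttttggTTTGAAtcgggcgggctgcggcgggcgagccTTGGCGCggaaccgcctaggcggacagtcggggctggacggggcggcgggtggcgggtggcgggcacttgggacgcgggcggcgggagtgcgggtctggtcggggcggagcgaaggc
Anln: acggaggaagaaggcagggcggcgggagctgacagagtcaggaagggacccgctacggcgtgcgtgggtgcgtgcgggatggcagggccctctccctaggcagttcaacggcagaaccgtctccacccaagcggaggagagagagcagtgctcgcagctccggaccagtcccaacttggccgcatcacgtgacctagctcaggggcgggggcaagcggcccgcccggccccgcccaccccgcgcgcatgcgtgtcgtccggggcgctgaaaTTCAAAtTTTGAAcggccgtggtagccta
Ube2c: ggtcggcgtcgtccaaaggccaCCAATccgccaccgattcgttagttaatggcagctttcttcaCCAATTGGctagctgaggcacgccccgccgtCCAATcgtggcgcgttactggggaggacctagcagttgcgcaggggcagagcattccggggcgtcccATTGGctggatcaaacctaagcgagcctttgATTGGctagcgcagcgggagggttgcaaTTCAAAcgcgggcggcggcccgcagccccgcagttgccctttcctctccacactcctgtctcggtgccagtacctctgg

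The windows lie at chr1:128359656-128359955 (minus strand) for Mcm6, chr2:132253131-132253430 (minus strand) for Pcna, chr8:75109259-75109558 (plus strand) for Mcm5, chr7:135716330-135716629 (minus strand) for Mki67, chr9:22389157-22389456 (minus strand) for Anln and chr2:164769679-164769978 (plus strand) for Ube2c. Mcm6 held 5 E2F matches, Mcm5 held 3 and Pcna held 0, and CHR letters were found in none of these 3 windows. Mki67 held 2 CHR matches and 1 E2F match, Anln held 2 CHR matches and Ube2c 1. Mcm6 and Mcm5, subunits of the replicative helicase, and Mki67, the proliferation antigen, recur in the results below.

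Library totals were 46547114 to 56462259 counts, and the least counted member was Ccne2 in DOX 1, at 4.43 CPM. Chi-square per degree of freedom between the libraries of 1 group was 13.2 in R+X to 210.1 in DOX, well above counting error. The labels name no separate animals for the libraries, and the p-values then reflect only how these samples vary, which may be technical. Over the members, 1 of 12 libraries (R+X 2) had its group mate as nearest neighbour, and the mates were opposite in DOX (r = -0.62) and DPD (r = -0.58) in their deviations from the members' means (47 genes). Epithelial markers of a colon carcinoma were at or near 0: of the 7 listed, Cdx2 had 0 counts in every library, Krt18 at most 7, Krt8 at most 14 and Krt20 at most 21, while Cdh1 had 472 to 946. Their summed CPM was 10.8 to 19.6.

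Compared per transcript length (FPKM, the count scaled by transcript length and library size), Ccnd1 was the highest of the members. This G1 cyclin averaged 275 FPKM over the 12 libraries, with a range of 239 to 312 FPKM. Ube2c, which attaches ubiquitin to mitotic cyclins, averaged 263 FPKM and Pcna, the sliding clamp, 193 FPKM, and the ranges of the 3 genes over libraries overlapped (202 to 400.0 FPKM for Ube2c, 144 to 264 FPKM for Pcna). Birc5, a subunit of the chromosomal passenger complex, averaged 126 FPKM, Cdc20, the activator of mitotic exit, 121 FPKM and Mcm6 115 FPKM. The lowest was Ccne2, the second E-type cyclin, at 3.49 FPKM, followed by Cdc7 at 8.14, Ccne1 at 8.35, Gins2 at 8.97 and Cdc25c at 9.93 FPKM. These levels depend on the length used: per exon union, an alternative added after seeing the data, the order was Ccnd1 at 275, Pcna at 193, Cdc20 at 121 and Ube2c at 97.9 FPKM, with Mcm6 at 76.2 and Birc5 at 35 FPKM. In the annotation 17 of 47 members overlap a gene on the opposite strand, Ube2c (the muscle gene Tnnc2), Ccnd1, Cdc20, Ccne2 and Gins2 among them. The use of strand in counting is not stated, so the levels of these genes are uncertain.

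Members differed widely in how steady they were. Mcm6 was the steadiest, its highest library being 1.12 times its lowest in CPM. Ccne2 spanned 3.31-fold and Mki67 3.06-fold, followed by Cenpe (2.36-fold) and Cdc7 (2.35-fold). DOX 1 had the lowest library of Ccne2 (4.43 CPM) and of Cdc7 (16.7 CPM), and Ctrl 2 that of Mki67 (188 CPM) and Cenpe (64.3 CPM).

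**Figure D1:**
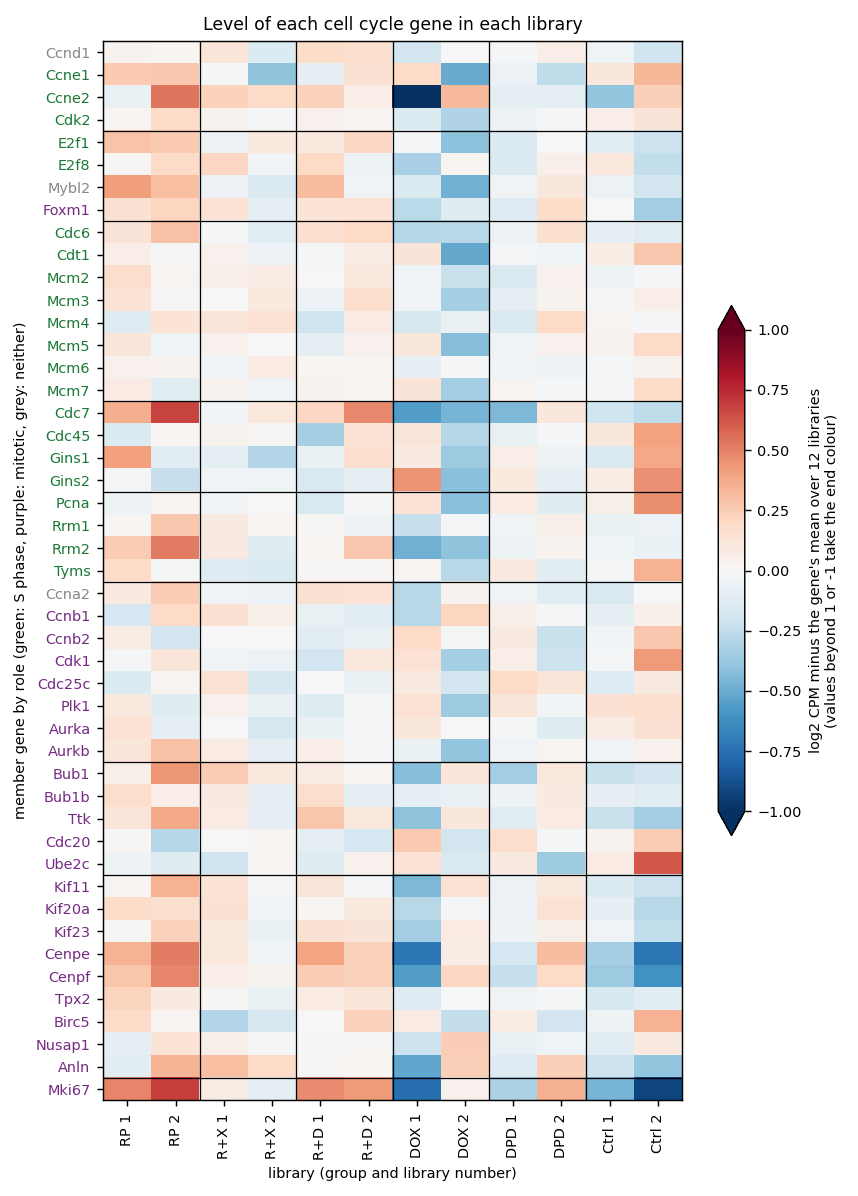
Each row is 1 of 47 members in order of role and each column 1 library, coloured by log2 CPM minus the gene's mean over the 12 libraries. Mki67, Cenpe and Cenpf are red in the RP and R+D libraries and blue in DOX 1 and both Ctrl libraries, while most licensing genes stay pale outside DOX 2.

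In both RP libraries the proliferation marker Mki67 and the kinetochore genes Cenpe and Cenpf were above both Ctrl libraries, while licensing genes were close to Ctrl. No member passed edgeR's quasi-likelihood test with Benjamini-Hochberg adjustment over all genes (0 of 47, beside 0.0154% of all genes tested). At an unadjusted p under 0.05, 10 members were higher and 0 lower, beside 12% and 9.38% of all genes, and the 10 are 21.3% of the members. DESeq2 called 4 members, Mki67, Cdc7, Cenpe and Cenpf (7.34% of its genes), and limma-voom called 0 (0.0819%). With only the RP and Ctrl libraries in the fit, edgeR called Mki67, Cenpe and Cenpf (2.77% of genes). The CPM of the groups did not overlap for 23 members that were higher in RP (32.3% of all genes) and 7 that were lower (27.1%).

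Mki67, which coats mitotic chromosomes and marks cycling cells, had 498 and 576 CPM in RP, against 257 and 188 CPM in Ctrl. Its log2 fold change was 1.27 ± 0.29 (standard error; edgeR adjusted p = 0.127, n = 2 libraries each). The gene lies at chr7:135689784-135716361 (minus strand, GRCm38), and both RP libraries stood above both Ctrl libraries. Cdc7 (chr5:106964322-106984432, plus strand), the kinase that fires licensed origins, had 31.7 and 39.3 CPM in RP, against 21.5 and 20.6 CPM in Ctrl, a log2 fold change of 0.75 ± 0.21 (edgeR adjusted p = 0.146). Cenpe (chr3:135212537-135273611, plus strand), the kinetochore motor, had 135 and 151 CPM in RP, against 84.2 and 64.3 CPM in Ctrl, a log2 fold change of 0.95 ± 0.26 (edgeR adjusted p = 0.146). For Cdc7 and Cenpe too the groups did not overlap, and Ctrl 2 was the lowest of the 4 libraries for all 3 genes.

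Cenpf (chr1:189640606-189688086, minus strand), a kinetochore protein of G2 and mitosis, had 145 and 168 CPM in RP, against 92.9 and 78.4 CPM in Ctrl. Rrm2 (chr12:24708241-24714146, plus strand), the small subunit of ribonucleotide reductase, which makes deoxynucleotides, had 163 and 196 CPM in RP, against 133 and 131 CPM in Ctrl. For both genes every RP library was above every Ctrl library. By role, the median log2 fold change was 0.39 for the 4 transcription factors and 0.35 for the 9 spindle, kinetochore and cytokinesis genes. It was 0.017 for the 8 licensing genes and -0.060 for the 8 mitotic entry genes, beside 0.058 for all genes tested. Over all 47 members the median was 0.14, with 32 above 0 (68.1%, beside 53.9% of all genes) and 15 below. Leaving out Ctrl 1 brought it to 0.030 and leaving out RP 2 to 0.076.

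Among cell cycle genes that are not members, the same comparison gave 0 calls by edgeR's adjusted p. Of 32 other S phase genes, 7 were higher (21.9%) and 0 lower at an unadjusted p under 0.05, beside 12% and 9.38% of all genes, with a median of 0.073. Pole, the catalytic subunit of the leading-strand polymerase, averaged 98.1 CPM in RP and 51.3 CPM in Ctrl. Clspn, which carries the replication checkpoint signal, averaged 77.7 CPM in RP and 41.8 CPM in Ctrl. Of 30 other mitotic genes, 7 were higher (23.3%) and 0 lower, Espl1 (separase, which cuts cohesin) among them at 148 CPM in RP and 86.3 CPM in Ctrl. Of 15 inhibitor and checkpoint genes, 5 were higher (33.3%) and 2 lower (13.3%). A log2 fold change above 0 was found for 12 of the 15 (80%), beside 53.9% of all genes. Atm, 1 of the 5 higher ones, averaged 60.4 CPM in RP and 27.3 CPM in Ctrl. The 2 lower ones were Cdkn1b (p27, an inhibitor of cyclin E and Cdk2), with 51.8 CPM in RP and 80.0 CPM in Ctrl, and Cdkn2c (p18, an inhibitor of Cdk4 and Cdk6), with 64.4 CPM in RP and 105 CPM in Ctrl. DESeq2 called Pole, Clspn, Espl1, Cdkn1b and Cdkn2c, beside 7.34% of its genes.

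Markers of other cells moved with this comparison. The summed CPM of 10 T cell markers was 50.1 and 42.9 in RP, against 27.4 and 22.3 in Ctrl. The summed CPM of 10 skeletal muscle markers was 245 and 91.4 in RP, against 25.2 and 20.2 in Ctrl. The markers of B and plasma cells (6 genes) summed to 25.2 and 15.6 CPM in RP, against 3.55 and 2.76 CPM in Ctrl. RP was above Ctrl in all 3 lists, and in each of these 4 libraries 1 T cell marker and no muscle marker had 0 counts. The endothelial markers (6 genes) summed to 126.9 and 94.1 CPM in RP, against 71.7 and 54.1 CPM in Ctrl, and the neutrophil markers (6 genes) to 13.9 and 27.3 CPM in RP, against 7.48 and 4.83 CPM in Ctrl. Red blood cell markers (5 genes, none at 0) went the other way, with 51.0 and 87.7 CPM in RP, 37.2 and 55.4 in R+X and 21.7 and 32.6 in R+D, against 223.2 and 260.3 CPM in Ctrl. Dividing lymphocytes also express the members, and the part of these cells in the values was not tested.

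With DOX added to the conjugate (R+X), Mki67, Cenpe, Cenpf and Anln stood above both Ctrl libraries. They are among the 15 longest members, of which Cdk1 and Gins2 lay below both Ctrl libraries in R+X. edgeR called 0 of 47 members in R+X against Ctrl (0% of all genes), DESeq2 0 (0.0205%) and limma-voom 0 (0%), while 3 members were higher and 0 lower at an unadjusted p under 0.05 (3.53% and 2.47% of all genes). These 3 were Mki67, with 375 and 332 CPM in R+X, Cenpf, with 125 and 123 CPM in R+X, and Anln, the actin-binding scaffold of the cleavage furrow. Anln had 426 and 396 CPM in R+X, against 300 and 264 CPM in Ctrl. Cenpe had 114 and 104 CPM in R+X. All 4 genes were above both Ctrl libraries, and the first 3 had log2 fold changes of 0.67 ± 0.28 for Mki67, 0.54 ± 0.24 for Cenpf and 0.54 ± 0.25 for Anln (edgeR adjusted p = 0.575 each). With the trend of level on transcript length removed, an alternative described further down, these were 0.15 for Mki67, -0.033 for Cenpf and 0.35 for Anln, and 0 members were higher and 0 lower at an unadjusted p under 0.05 (2.98% and 2.22% of all genes). As measured, the members' median was 0.026, beside 0.007 for all genes, and 0.071 without R+X 2.

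With DPD added to the conjugate (R+D), Mki67 was nearly as high as in RP. It had 493 and 477 CPM in R+D, against 257 and 188 CPM in Ctrl, a log2 fold change of 1.12 ± 0.29 (edgeR adjusted p = 0.314). Cenpe had 139 and 125 CPM and Cenpf 142 and 140 CPM in R+D, all above the Ctrl libraries. Cdc7 had 28.3 and 34.4 CPM and Rrm2 139 and 165 CPM in R+D, also above Ctrl. edgeR called 0 of 47 members (0% of all genes) and limma-voom 0 (0%), whereas DESeq2 called Mki67 (1.34% of its genes; adjusted p = 0.023). At an unadjusted p under 0.05, 5 members were higher and 0 lower (8.69% and 6.66% of all genes), namely Mki67, Cenpe, Cenpf, Cdc7 and Ttk. Ttk, the kinase that starts the spindle checkpoint, had 40.1 and 35.4 CPM in R+D, against 28.3 and 26.1 CPM in Ctrl, with no overlap. Mki67, Cenpe and Cenpf are among the longest members. Fold changes in R+D ran with transcript length, with a Spearman correlation of 0.59 over the 47 members, and the part of length was not tested. The median over members was 0.037, beside 0.044 for all genes, but -0.005 without Ctrl 1 and 0.10 without Ctrl 2. Muscle markers summed to 24.8 and 328 CPM in the R+D libraries.

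With DOX given alone the fold changes of the S phase genes lay below 0 but none was called. In DOX tumours all 21 S phase genes had a log2 fold change below 0 against Ctrl, with a median of -0.20. The mitotic genes were centred near 0 (median 0.018, 13 of 23 above 0). Over all genes tested the median was 0.010, and 51.4% of genes were above 0. In single libraries, 10 of 21 S phase genes were below both Ctrl libraries in DOX 1 and 17 of 21 in DOX 2. The same share over all genes was not computed, so these 2 counts only describe the libraries. edgeR called 0 of 47 members (0% of all genes), DESeq2 0 (0.00512%) and limma-voom 0 (0%). At an unadjusted p under 0.05, 0 members were higher and 2 lower (0.86% and 1.22% of all genes). Rrm2 had 97.8 and 103 CPM in DOX, against 133 and 131 CPM in Ctrl, a log2 fold change of -0.39 ± 0.15 (edgeR adjusted p = 1). Cdk2, the kinase that partners cyclin E and cyclin A, had 58.2 and 52.2 CPM in DOX, against 67.2 and 70.3 CPM in Ctrl, a log2 fold change of -0.32 ± 0.14 (edgeR adjusted p = 1). Neither gene overlapped between the groups.

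For other members the 2 DOX libraries lay far apart. Pcna had 319 and 217.9 CPM in DOX, against 302 and 401 CPM in Ctrl. Mcm5 had 295 and 203 CPM in DOX, against 280.3 and 312 CPM in Ctrl. In both genes DOX 2 was the lowest of the 12 libraries and DOX 1 lay between the Ctrl libraries. Mki67 went the other way, with 211 and 367 CPM in DOX, DOX 1 lying inside the Ctrl range and DOX 2 above it. Macrophage markers summed to 1508 and 1042 CPM and fibroblast markers to 6194 and 7570 CPM in DOX, against 1471 and 1639 CPM and 5724 and 4560 CPM in Ctrl. Red blood cell markers summed to 368 and 347 CPM in DOX, against 223.2 and 260.3 CPM in Ctrl. DOX 2 had the lowest macrophage and highest fibroblast sum of all libraries, and the part of these cells in the members' values was not tested. Of 32 other S phase genes, 29 were below 0 in DOX (median -0.18), while 51.4% of all genes were above 0. Of the 32, 0 had an unadjusted p under 0.05 (0.86% of all genes were higher and 1.22% lower).

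In DPD tumours the members were centred on Ctrl, with a median of -0.005 beside 0.014 for all genes. edgeR called 0 of 47 (0% of all genes), DESeq2 0 (0.0359%) and limma-voom 0 (0%). Mki67 and Cenpe were higher and Ube2c lower at an unadjusted p under 0.05 (2.61% and 1.4% of all genes). Mki67 had 286 and 454 CPM in DPD, both above Ctrl, a log2 fold change of 0.73 ± 0.28 (edgeR adjusted p = 0.725). Cenpe had 93.8 and 132 CPM in DPD and was likewise above both Ctrl libraries. Ube2c had 267 and 196 CPM in DPD, against 266 and 387 CPM in Ctrl, and the groups overlapped. Mki67 and Cenpe are among the 15 longest members and Ube2c among the 15 shortest. Fold changes in DPD ran with transcript length, with a Spearman correlation of 0.63 over the 47 members, and the part of length was not tested. Without DPD 2 the Mki67 log2 fold change was 0.36, and without DPD 1 it was 1.03.

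The prodrug and its parent drug can be compared at the same dose and route when given alone. The values in DPD were the higher for 41 of 47 members, with a median log2 fold change of DPD over DOX of 0.12. Over all genes tested the median was -0.018, and 47.6% of genes were the higher in DPD. No member passed edgeR (0 of 47, 0% of all genes), DESeq2 (0, 0.0461%) or limma-voom (0, 0%), and 2 were higher and 0 lower at an unadjusted p under 0.05 (3.01% and 1.28%). Rrm2 had 132 and 140 CPM in DPD, against 97.8 and 103 CPM in DOX, with no overlap. Its log2 fold change was 0.43, with a 95% interval of 0.092 to 0.77 before adjustment (edgeR adjusted p = 0.979). Cdc6, which loads the MCM helicase, had 34.0 and 39.4 CPM in DPD, against 29.0 and 29.1 CPM in DOX. Its log2 fold change was 0.34, with an interval of 0.020 to 0.66. For Mki67 the interval ran from -0.27 to 0.98, and for Pcna from -0.34 to 0.54, so a difference of either sign within these bounds could not be told from 0. Markers of other cells differed as well. Red blood cell markers summed to 124 and 25.3 CPM in DPD, against 368 and 347 CPM in DOX, T cell markers to 27.6 and 31.7 CPM in DPD, against 17.4 and 16.3 CPM in DOX, and fibroblast markers to 5609 and 4446 CPM in DPD, against 6194 and 7570 CPM in DOX. The groups overlapped in none of these 3 lists, and their part in the members' values was not tested.

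**Figure D2:**
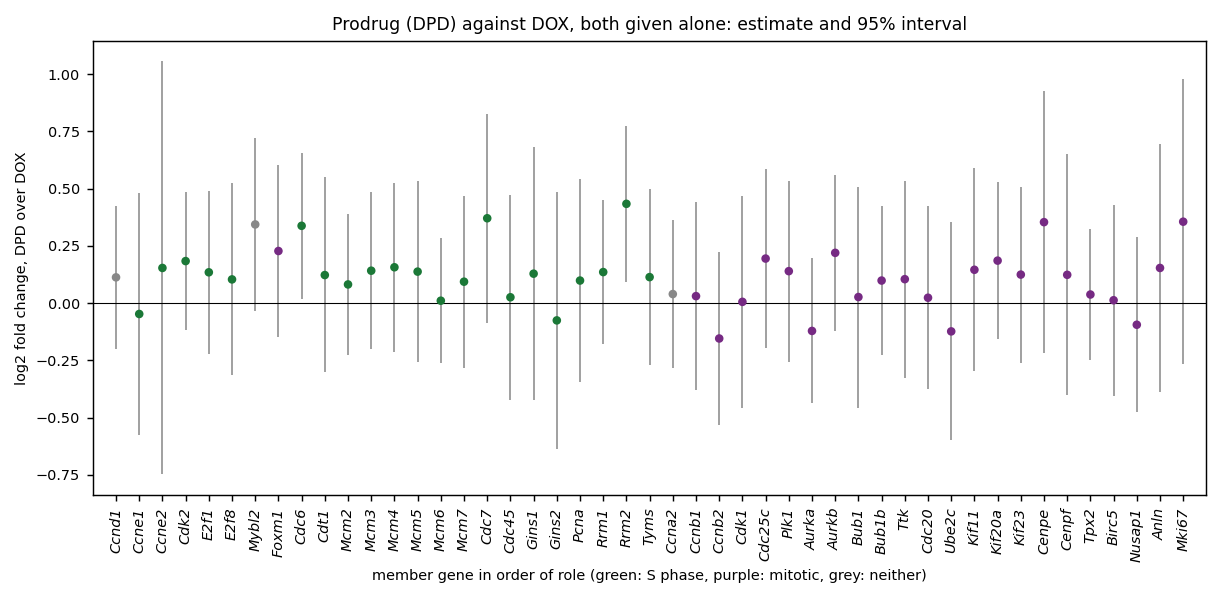
Points give the log2 fold change of DPD over DOX (2 libraries each) for each of 47 members in order of role, and lines the 95% interval before adjustment. Most points lie above 0, and the intervals of Cdc6 and Rrm2 alone do not reach 0.

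Given with the conjugate, the pair gave no member whose interval left out 0 in the values as measured. In R+D against R+X edgeR called 0 of 47 members (0% of all genes), DESeq2 0 (0.219%) and limma-voom 0 (0%), and 0 members were higher and 0 lower at an unadjusted p under 0.05 (3.75% and 1.52% of all genes). The median was 0.026, beside 0.004 for all genes, and ran from -0.017 without R+X 2 to 0.070 without R+X 1. Mki67 had the largest difference of the members, 0.46 on the log2 scale, with 493 and 477 CPM in R+D, against 375 and 332 CPM in R+X, and a 95% interval of -0.17 to 1.08. With the trend of level on transcript length removed, 3 members were higher and 0 lower at an unadjusted p under 0.05 (4.41% and 2.32% of all genes). These were Mki67 at 0.42 ± 0.11, Birc5 at 0.31 ± 0.11 and Cenpe at 0.26 ± 0.11 (log2 fold change and standard error). A test of whether the difference between DPD and DOX changed with the conjugate called 0 of 47 members by edgeR (0% of all genes), and 0 had an unadjusted p under 0.05. The share of all genes at that unadjusted p was not computed, and route and handling changed with the conjugate.

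When DOX was added to the conjugate, most members had lower values, but the share that was lower at an unadjusted p under 0.05 was that of all genes. In R+X against RP edgeR called 0 of 47 members (0% of all genes), DESeq2 0 (1.77%) and limma-voom 0 (0.0256%). There were 0 members higher and 3 lower at an unadjusted p under 0.05 (2.25% and 6.43% of all genes), and the 3 are 6.38% of the members. Mybl2, the B-Myb factor of the S and G2 programme, had 73.3 and 69.3 CPM in R+X, against 102.5 and 94.3 CPM in RP, a log2 fold change of -0.47 ± 0.17 (edgeR adjusted p = 0.432). Rrm2 had 145 and 126 CPM in R+X, against 163 and 196 CPM in RP. Cdc7 had 24.1 and 26.5 CPM in R+X, against 31.7 and 39.3 CPM in RP. None of the 3 genes overlapped between the groups. The members' median was -0.10, beside -0.003 for all genes, and -0.030 without R+X 2. Fold changes were above 0 on the log2 scale for 19.1% of the members and 49.6% of all genes. The summed T cell markers were 24.7 and 13.2 CPM in R+X, against 50.1 and 42.9 CPM in RP, and their part was not tested.

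For DPD added to the conjugate no member reached an unadjusted p under 0.05 against RP. In R+D against RP edgeR called 0 of 47 (0% of all genes), DESeq2 0 (0.0512%) and limma-voom 0 (0%), with 0 members higher and 0 lower at an unadjusted p under 0.05 (0.784% and 1.95%). The members' median was -0.062, beside 0.003 for all genes, and 14.9% of the members were above 0, beside 50.7% of all genes. Adding the conjugate to each drug gave small positive medians of 0.14 in R+X against DOX and 0.066 in R+D against DPD, beside -0.007 and 0.008 for all genes. Route and handling also differed between these groups, so the part of the conjugate cannot be told apart from theirs. In R+X against DOX 78.7% of the members were above 0, beside 48.9% of all genes. In R+D against DPD the shares were 74.5% and 51.4%. In R+X against DOX edgeR and limma-voom called 0 of 47 (0% of all genes each) and DESeq2 0 (0.0154%), while Rrm2 and Cdc7 were higher and 0 members lower at an unadjusted p under 0.05 (1.75% and 1.04%). Cdc7 had 24.1 and 26.5 CPM in R+X, against 16.7 and 17.8 CPM in DOX. In R+D against DPD edgeR and limma-voom called 0 of 47 (0% each) and DESeq2 0 (0.0359%), while Cdc7 was higher and 0 members lower (1.52% and 0.789%). Cdc7 had 28.3 and 34.4 CPM in R+D, against 18.04 and 26.6 CPM in DPD, and its log2 fold change of 0.49 was 0.24 without DPD 1 and 0.78 without DPD 2. Tests of whether R+X minus DOX, or R+D minus DPD, departed from RP minus Ctrl called 0 of 47 members by edgeR (0% of all genes each). Route and handling changed with the conjugate here too, so its action is not isolated. One member, Mki67 with DOX, had an unadjusted p under 0.05, where the edgeR log2 fold change for adding the conjugate minus that of the conjugate alone was -0.98 ± 0.40 (edgeR adjusted p = 0.998). The share of all genes at that unadjusted p was not computed, so the count is only a description. With DPD the Mki67 value was much the same, at -0.88 ± 0.40 (edgeR unadjusted p = 0.0506, adjusted p = 0.84). Both Mki67 values use the same RP and Ctrl libraries, so they are not independent.

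**Figure D3:**
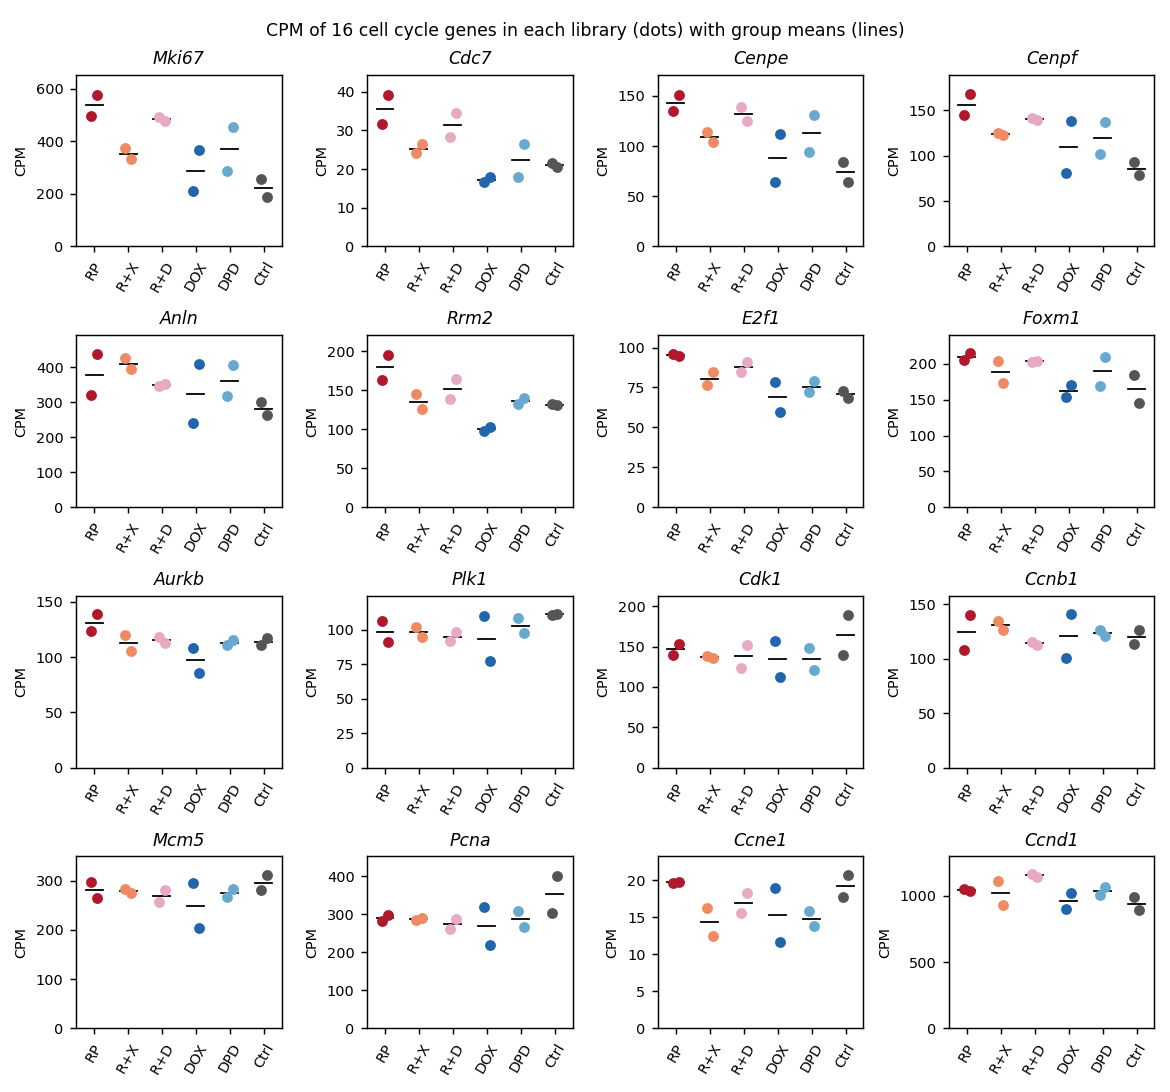
CPM of 16 members in each library (dots) and the group means (lines), with the vertical axes starting at 0. Mki67, Cenpe and Cenpf are high in RP and R+D and lowest in Ctrl and DOX 1, whereas Mcm5, Pcna and Cdk1 are highest in Ctrl 2.

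Averaged over the 3 settings, the conjugate groups (RP, R+X, R+D) were compared with the groups without it (DOX, DPD, Ctrl), 6 libraries each. R+X and R+D also differed from the other groups in route and handling. edgeR called 0 of 47 members (0.0154% of all genes), limma-voom 0 (0.0154%) and DESeq2 4, Cdc7, Mki67, Rrm2 and Cenpe (5.9% of its genes). At an unadjusted p under 0.05, 11 members were higher and 0 lower (10.9% and 9.47% of all genes). They were 3 of the 4 cell cycle transcription factors, E2f1, Mybl2 and Foxm1, the S phase genes Cdc7, Rrm2 and Cdc6, and Mki67, Cenpe, Cenpf, Ttk and Bub1. Without DOX 2, edgeR called 11 members of a much larger list (15.6% of genes), 10 of them higher and Gins2 lower, so this 1 library decided the count. The groups overlapped in CPM for every member (0.236% of all genes did not overlap and were higher, and 0.0768% were lower).

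Cdc7 averaged 30.7 CPM in the conjugate groups and 20.2 CPM in the others, a log2 fold change of 0.60 ± 0.12 (edgeR adjusted p = 0.145). The exception to a full separation was DPD 2 at 26.6 CPM, above R+X 1 at 24.1 and R+X 2 at 26.5. Rrm2 averaged 156 CPM in the conjugate groups and 123 CPM in the others, a log2 fold change of 0.35 ± 0.089 (edgeR adjusted p = 0.155). Mki67 averaged 458 CPM in the conjugate groups and 294 CPM in the others, a log2 fold change of 0.65 ± 0.16 (edgeR adjusted p = 0.151). E2f1, the activator of S phase genes, had 96.1 and 94.9 CPM in RP, 76.4 and 84.7 in R+X and 84.6 and 91.2 in R+D. It had 78.2 and 59.4 CPM in DOX, 71.9 and 79.2 in DPD and 73.0 and 68.2 in Ctrl. E2f1 was thus highest in the 2 RP libraries, with R+X 1 below 2 of the libraries without conjugate.

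Foxm1, the factor that drives mitotic genes, had 205.4 and 215 CPM in RP, 173 in R+X 2, 203 and 204.2 in R+D, 154 and 170.2 in DOX, 169 and 210.0 in DPD, and 185 and 146 in Ctrl. R+X 1 lay between the R+D libraries, and only DPD 2 among the libraries without conjugate reached the RP and R+D level. Aurkb, the kinase of the chromosomal passenger complex, had 124 and 139 CPM in RP, 120.0 and 106 in R+X, 118 and 112 in R+D, 108 and 86.0 in DOX, 111 and 116 in DPD, and 111 and 117 in Ctrl. RP was the highest group and DOX 2 the lowest library. Plk1, a kinase of mitotic entry, had 106 and 91.2 CPM in RP, 102 and 94.6 in R+X, 91.6 and 98.0 in R+D, 110 and 77.1 in DOX, 108 and 97.4 in DPD, and 111 and 112 in Ctrl. For Plk1 both Ctrl libraries were above every other library.

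Cdk1, the mitotic kinase, had 140 and 154 CPM in RP, 138 and 135 in R+X, 124 and 152 in R+D, 156 and 112 in DOX, 148 and 122 in DPD, and 140 and 190 in Ctrl. Ccnb1, its cyclin partner, had 108 and 140.0 CPM in RP, 135 and 127 in R+X, 116 and 113 in R+D, 100.3 and 141 in DOX, 126 and 121 in DPD, and 114 and 126 in Ctrl. For Ccnb1 every group but R+X, which was above, overlapped Ctrl, and Ctrl 2 was the highest library for Cdk1. Their log2 fold changes over the conjugate average were -0.034 (95% interval -0.30 to 0.23) and 0.018 (-0.22 to 0.26). Mcm5 had 297 and 265 CPM in RP, 282 and 274 in R+X, 257 and 281 in R+D, and 266 and 282 in DPD. Pcna had 281 and 297 CPM in RP, 284 and 291 in R+X, 262 and 288 in R+D, and 308 and 268 in DPD. Outside DOX both genes were highest in Ctrl 2 and lowest in R+D 1. Ccnd1 had 1051 and 1037 CPM in RP, 1116 and 933 in R+X, 1166 and 1143 in R+D, 902 and 1022 in DOX, 1009 and 1071 in DPD, and 992 and 893 in Ctrl. R+D had its 2 highest libraries and Ctrl 2 was the lowest. Ccne1, the E-type cyclin, had 19.7 and 19.8 CPM in RP, 16.2 and 12.5 in R+X, 15.5 and 18.2 in R+D, 18.9 and 11.6 in DOX, 15.8 and 13.8 in DPD, and 17.8 and 20.6 in Ctrl. R+X and DPD were below both Ctrl libraries for Ccne1, and the other groups overlapped Ctrl.

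Among other pathway genes, the same average placed 11 of 32 other S phase genes higher (34.4%) and 0 lower at an unadjusted p under 0.05, beside 10.9% and 9.47% of all genes, with 0 passing edgeR's adjusted p. Timeless, which protects replication forks, averaged 39.1 CPM in the conjugate groups and 29.4 CPM in the others. Pole averaged 88.8 CPM in the conjugate groups and 59.8 CPM in the others. Of 30 other mitotic genes 4 were higher (13.3%) and 0 lower, a share near that of all genes. Kif4, a chromosome-bound kinesin and 1 of the 4, averaged 69.0 CPM in the conjugate groups and 51.0 CPM in the others. Of 15 inhibitor and checkpoint genes 33.3% were higher and 13.3% lower, and 73.3% had a log2 fold change above 0, beside 53.4% of all genes. Atm, 1 of the higher ones, averaged 52.7 CPM in the conjugate groups and 35.1 CPM in the others. Cdkn1b, 1 of the lower ones, averaged 59.3 CPM in the conjugate groups and 77.1 CPM in the others, a log2 fold change of -0.39 ± 0.095 (edgeR adjusted p = 0.147). DESeq2 called Timeless, Pole, Kif4 and Cdkn1b in this comparison, beside 5.9% of its genes.

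The balance of mitotic against S phase genes was shifted towards mitotic genes in most treated libraries relative to Ctrl. The mean log2 CPM of the mitotic set minus that of the S phase set was 0.52 and 0.56 in RP, 0.56 and 0.51 in R+X, 0.59 and 0.49 in R+D, 0.44 and 0.77 in DOX, 0.54 and 0.57 in DPD, and 0.44 and 0.32 in Ctrl. RP, R+X, R+D and DPD lay above both Ctrl libraries, and DOX 1 lay level with Ctrl 1. The differences from Ctrl were 0.15 in RP, 0.15 in R+X, 0.16 in R+D, 0.23 in DOX and 0.17 in DPD, beside a spread within groups of 0.11 (SD, 6 degrees of freedom). They share the Ctrl libraries, and without Ctrl 2 they were 0.093 in RP, 0.091 in R+X and 0.097 in R+D. The DOX value was 0.39 without DOX 1 and 0.058 without DOX 2, and DOX 2 had the lowest S phase mean of all libraries at 6.00, against 6.25 and 6.40 in Ctrl.

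**Figure D4:**
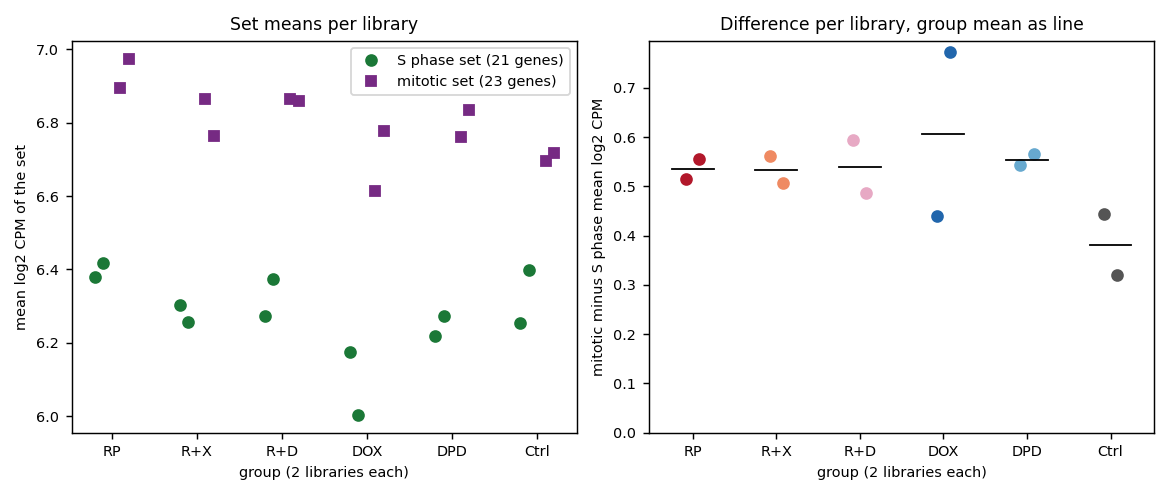
Left, mean log2 CPM of the S phase set (circles) and mitotic set (squares) in each library, and right, their difference with the group mean as a line. The Ctrl libraries have 0.44 and 0.32, and DOX 2 stands apart at 0.77.

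The fold changes against Ctrl ran with transcript length, most clearly within the mitotic set. Length was that of the transcript with the longest coding sequence, from 947 bases for Birc5 to 11130 for Cenpf, with a median of 3006 bases, and all 47 members had one. In RP against Ctrl the Spearman correlation of log2 fold change with length was 0.56 over the 47 members, 0.80 over the 23 mitotic genes and 0.12 over the 21 S phase genes. Over the 16252 tested genes with a length (83.2%) it was 0.36. For the conjugate average the values were 0.56, 0.81, 0.16 and 0.36. The S phase genes had higher values in the other comparisons with Ctrl, at 0.62 in DOX, 0.46 in R+X, 0.40 in DPD and 0.23 in R+D. The mitotic genes had 0.71, 0.79, 0.76 and 0.76 in the same order. These correlations are across genes, which share libraries and are not independent replicates.

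The long genes were Cenpf, Mki67 (10061 bases) and Cenpe (7910), and the short ones Birc5, Ube2c (967), Gins1 (1087, a GINS subunit) and Pcna (1518). In RP against Ctrl the 15 longest members had a median log2 fold change of 0.35 and the 15 shortest -0.083. In DOX against Ctrl the medians were 0.029 for the longest and -0.27 for the shortest. The mean log2 CPM of the 15 longest minus that of the 15 shortest was 0.90 and 1.05 in RP, 0.94 and 0.90 in R+X, 1.04 and 0.87 in R+D, 0.50 and 1.08 in DOX, 0.72 and 1.03 in DPD, and 0.69 and 0.35 in Ctrl. Ctrl 2, DOX 1, Ctrl 1 and DPD 1 had the 4 lowest values. The relation of length to level over all genes moved with the libraries in the same way: the correlation of deviations from the gene mean with length was -0.47 in Ctrl 2, -0.41 in DOX 1, -0.36 in DPD 1 and -0.27 in Ctrl 1, and above 0 in the other 8. Integrity of the RNA was not given, and its part was not tested.

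When each library's trend of level on length was removed over all genes, an alternative added after seeing the data, the order of the sets in the conjugate average turned round. The S phase median was then 0.12 and the mitotic median 0.075, in place of 0.059 and 0.15. The difference between mitotic and S phase genes was 0.063 in RP minus Ctrl, 0.081 in R+X, 0.076 in R+D, 0.19 in DOX and 0.11 in DPD. Mki67 had a log2 fold change of 0.65 ± 0.11 in RP against Ctrl, where it was 1.27 before, and 0.34 ± 0.062 in the conjugate average, where it was 0.65 before. Cenpf had 0.075 in the conjugate average, against 0.43 before, and -0.033 in R+X against Ctrl. Cdc7 stayed at 0.59 ± 0.11 and Rrm2 was 0.41 ± 0.090 in the conjugate average. At an unadjusted p under 0.05, 13 members were higher and 0 lower in RP (11.2% and 9.6% of all genes) and 13 and 0 in the conjugate average (10.5% and 9.86%). The S phase median in DOX against Ctrl was -0.21 with the trend removed.

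**Figure D5:**
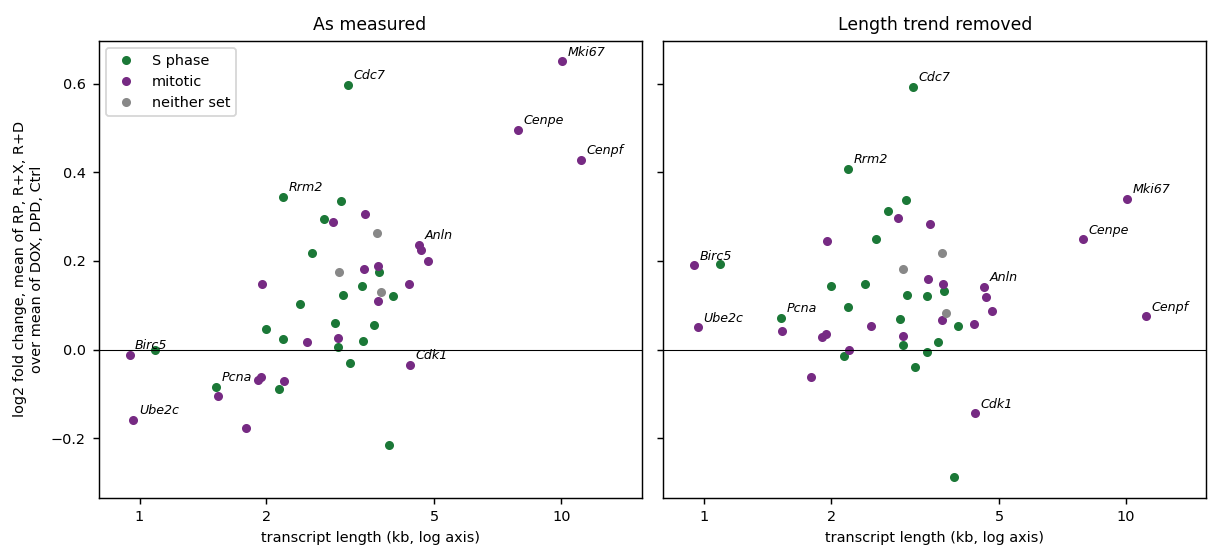
Log2 fold change of the conjugate average against transcript length (log axis) for 47 members, as measured and with the length trend removed. As measured, Mki67, Cenpe and Cenpf stand at the upper right and Ube2c at the lower left. With the trend removed Cdc7 is the highest and Cenpf lies near 0.

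Inside groups, pairs of members of like length varied together more than pairs of a set. As deviations from group means over 12 libraries, the median correlation between pairs was 0.23 within the S phase set (210 pairs), 0.13 within the mitotic set (253 pairs) and -0.072 between the sets (483 pairs). The 2 deviations of a group are equal and opposite, so each correlation rests on 1 independent value for each of the 6 groups. Groups whose libraries lay far apart, such as DOX, weigh most in it. Grouped by length it was 0.42 within the 15 longest, 0.59 within the 15 shortest (105 pairs each) and -0.37 between the longest and the shortest. The correlation was positive in 58.1% of pairs within the S phase set, 51.8% within the mitotic set and 48.7% between them. It was positive in 68.6% of pairs of the longest, 89.5% of pairs of the shortest and 27.1% of pairs between them. The first principal component of the members held 59% of their variance and ran from DOX 1, Ctrl 2 and Ctrl 1 at one end to RP 2 at the other. Its largest loadings were on Mki67, Cenpe and Cenpf, with Gins2, Ube2c and Cdc20 opposite, and loading and length had a Spearman correlation of 0.61 over the 47 members. The libraries share depth and composition, so these values describe the 12 libraries and carry no test.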

How the data were processed

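Tumour RNA was extracted with TRIzol and made into libraries with a NEBNext kit, per the labels' protocols. The submitters' processing notes name HISAT2 2.1.0, StringTie 1.3.5, DESeq2 and the GRCm38 build, without their settings or the use of strand. The deposited table holds the authors' raw read counts per gene for 12 libraries, without normalization. Sample columns were matched to the labels by name, and R+X and R+D were read as the DOX and DPD combinations from their letters.

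Of 43698 rows, 19525 passed edgeR's filterByExpr. TMM factors and edgeR 4.0.16 quasi-likelihood tests (R 4.3.3) were fitted over all 6 groups (6 residual degrees of freedom, biological coefficient of variation 0.2574), with Benjamini-Hochberg adjustment over all genes and calls at 0.05. Fold changes are log2 with standard errors, and CPM and FPKM use TMM library sizes. Levels per length and correlations used GENCODE M21 transcripts. The test was also run on simulated data. The planted changes were larger than those of most members, so the run does not show whether changes as small as theirs would be called. Alternatives were DESeq2 1.42.0 and limma-voom 3.58.1, other filters, 2-group fits, leaving out each library and, added after seeing the data, removal of a length trend, FPKM per exon union and tests of differences of differences. Full statistics were given to called members or, with none called, to up to 3 of smallest p in each direction. The members and lists were chosen with earlier results of these data known.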

Additional observations from a re-analysis of the deposited data

How the results depend on the processing

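No paired analysis was possible because the labels give no replicate numbers that link libraries across groups. With DESeq2 the members called were 4 in RP against Ctrl, 1 in R+D against Ctrl and 4 in the conjugate average, and with only the 2 groups fitted 3 were called in RP, in place of 0 throughout. Leaving out 1 library at a time, the conjugate average had 0 to 11 members called (11 without DOX 2). The members' median log2 fold change then ranged from 0.030 to 0.155 in RP against Ctrl, -0.006 to 0.071 in R+X, -0.005 to 0.101 in R+D, -0.17 to -0.054 in DOX and -0.038 to 0.045 in DPD. It ranged from 0.064 to 0.168 in DPD against DOX, -0.017 to 0.070 in R+D against R+X, -0.133 to -0.030 in R+X against RP and 0.095 to 0.17 in R+X against DOX. The mitotic minus S phase value in DOX minus Ctrl ranged from 0.058 to 0.391. With the length trend removed, 1 to 11 of 47 members changed sign in a comparison (5 in RP against Ctrl, 11 in DOX and in DPD against Ctrl and 8 in the conjugate average). Among the named genes Cenpf in R+X against Ctrl did, at -0.033, and the cause was not tested. Of the alternatives for the named genes, 773 kept direction and side of the threshold, 40 crossed it and 1 changed sign. With 2 libraries a group, the 95% interval for Mki67 in RP spanned 0.64 to 1.90.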
